A study of Mus musculus with 5 samples.

Results

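The genes described here are 10 Wnt ligands, Wnt10b, Wnt10a, Wnt7a, Wnt7b, Wnt5a, Wnt5b, Wnt6, Wnt3, Wnt4 and Wnt9a, taken by name from the 19 Wnt ligand genes of the mouse. All 10 were found among the 55421 genes of the raw count table. Bulk RNA-seq libraries, 2 control and 3 Yy1 cKO, were made from whole cerebella taken on postnatal day 14. The Yy1 cKO mice were Pcp2 Cre/+; Yy1 fx/fx, so the Cre recombinase, driven by the Pcp2 promoter of Purkinje cells, meets 2 floxed copies of the transcription factor gene Yy1. The controls were littermates, Pcp2 Cre/+; Yy1 fx/+, which carry the same Cre and 1 floxed copy, so they are heterozygous for the deletion in the same cells and are not wild type. Sex is labelled as mixed and no label says whether a library is 1 animal or a pool, so a p-value here reflects only library-to-library spread, which may be technical.

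Wnt ligands are secreted glycoproteins that carry a fatty acid. Porcn attaches it, Wls carries the ligand to the cell surface, and Frizzled receptors bind it. With the co-receptors Lrp5 and Lrp6 this stabilises beta-catenin, while Wnt5a and its relatives also act through Ror and Ryk receptors without beta-catenin. In the developing cerebellum Wnt7a is known from granule cells, where it shapes the mossy fibre terminals that contact them, and Wnt3 from Purkinje cells. Wnt10b is known best from bone, fat and hair, and is named together with dendrite development in the title of the series.

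Library totals were 17424860 to 20305705 counts. Yy1 stood at 73.7 to 74.6 CPM in the controls and 73.4 to 81.7 CPM in Yy1 cKO. CPM are read counts scaled to a common library total after TMM scaling, which corrects totals for composition. Purkinje cells are a small part of the tissue and the counts do not separate the floxed part, so this checks the labels little. The tissue label was borne out by Calb1 of Purkinje cells (611 to 734 CPM) and Gabra6 of granule neurons (433 to 638 CPM) in every library. The Y-linked gene Ddx3y was seen in control 1 (1175 counts) and Yy1 cKO 3 (1471 counts) but not elsewhere (0 counts). Yy1 cKO 3 also stood apart from Yy1 cKO 1 and 2 over all genes (a chi-square per gene of 16.6 to 16.7 against them and 3.51 between them), so values without it are given where they differ. In bulk tissue, fewer cells of a type and less RNA per cell cannot be told apart.

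Of the 10 ligands, 8 passed the filter on low counts, and of these 2 were called higher in Yy1 cKO (Wnt7a and Wnt6) and 1 lower (Wnt5a). A call means an adjusted p under 0.05 in edgeR's quasi-likelihood test with Benjamini-Hochberg adjustment over all 20388 genes tested. Of all genes tested 10.7% were called higher and 12.6% lower, 23.4% in either direction, against 3 of 8 ligands. The groups did not overlap for 3 of the 8 that were higher in Yy1 cKO (Wnt7a, Wnt6 and Wnt7b) and 2 that were lower (Wnt5a and Wnt9a), beside 25.2% and 27% of all genes tested. The median log2 fold change of the 8 was 0.28, beside -0.0009 over all genes. Wnt10b and Wnt10a did not pass the filter and are given as raw counts, with a value from a second fit over the 24859 genes that had at least 11 counts in total. Of these genes 8.44% were called higher and 10.3% lower.

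**Figure D1:**
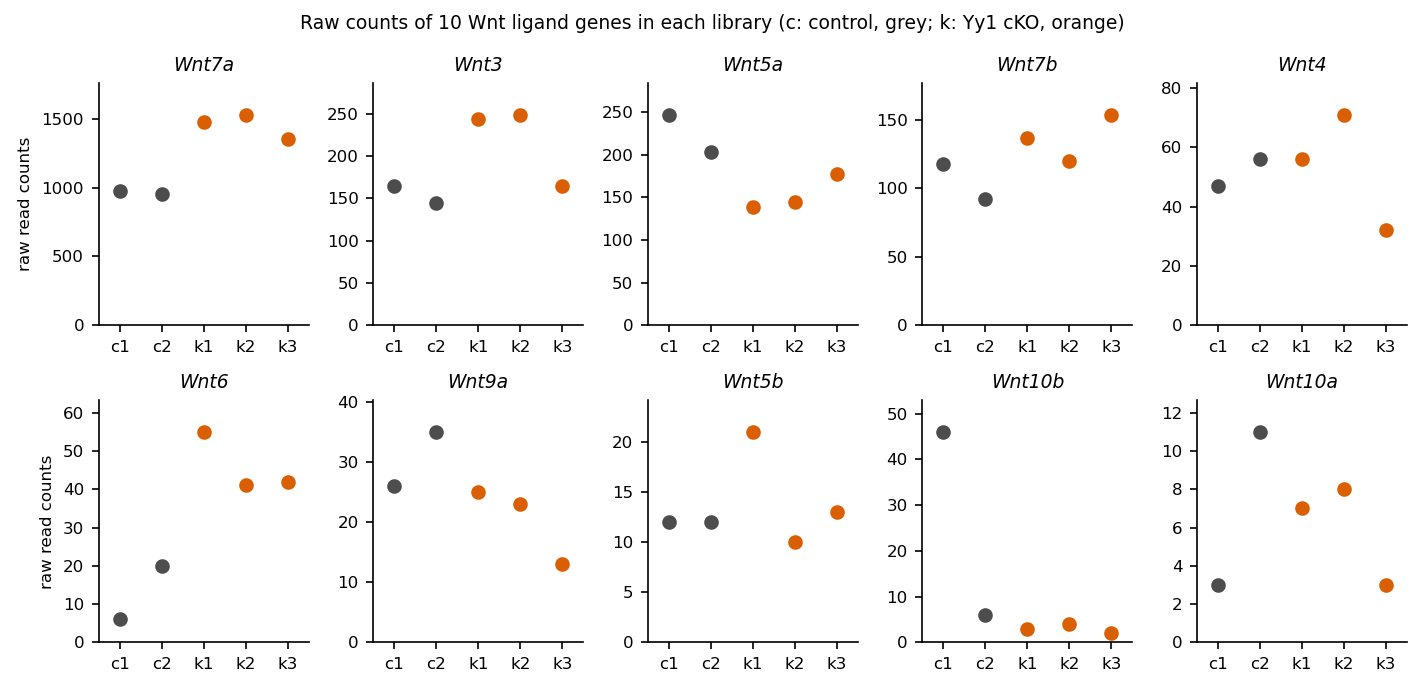
Raw read counts (vertical axes, each from 0 and with its own range) of the 10 ligand genes in control libraries 1 and 2 (grey, c1 and c2) and Yy1 cKO libraries 1 to 3 (orange, k1 to k3), ordered by mean CPM. Wnt7a, Wnt6 and Wnt7b are higher in each Yy1 cKO library than in either control, while 46 of the 61 counts of Wnt10b lie in control 1.

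Levels of different ligands were compared per exon length, as TMM-scaled RPKM (CPM per kilobase of exon). Wnt7a was by far the most abundant ligand, at 16.7 ± 0.158 RPKM (SD, n = 2) in the controls and 24.2 ± 1.89 (SD, n = 3) in Yy1 cKO. It made up 64.2% to 72.9% of the summed RPKM of the 19 ligands. Wnt3 came second at 2.61 to 4.43 RPKM over the 5 libraries. Next came Wnt7b (1.05 to 1.69), Wnt5a (0.894 to 1.7) and Wnt6 (mean 0.794), whose ranges overlap. Of the 10, Wnt4, Wnt9a and Wnt5b followed at means of 0.671, 0.394 and 0.273 RPKM, each overlapping the next in its range over libraries. Wnt10b (mean 0.193, range 0.0316 to 0.727) and Wnt10a (mean 0.14, range 0.0653 to 0.249) had the lowest means of the 10 over all 5 libraries. For Wnt10b this came from the Yy1 cKO libraries (mean 0.0468 RPKM) and control 2 (0.0984), while in control 1 it lay above Wnt4 (0.602), Wnt9a (0.42), Wnt5b (0.243) and Wnt6 (0.147).

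**Figure D2:**
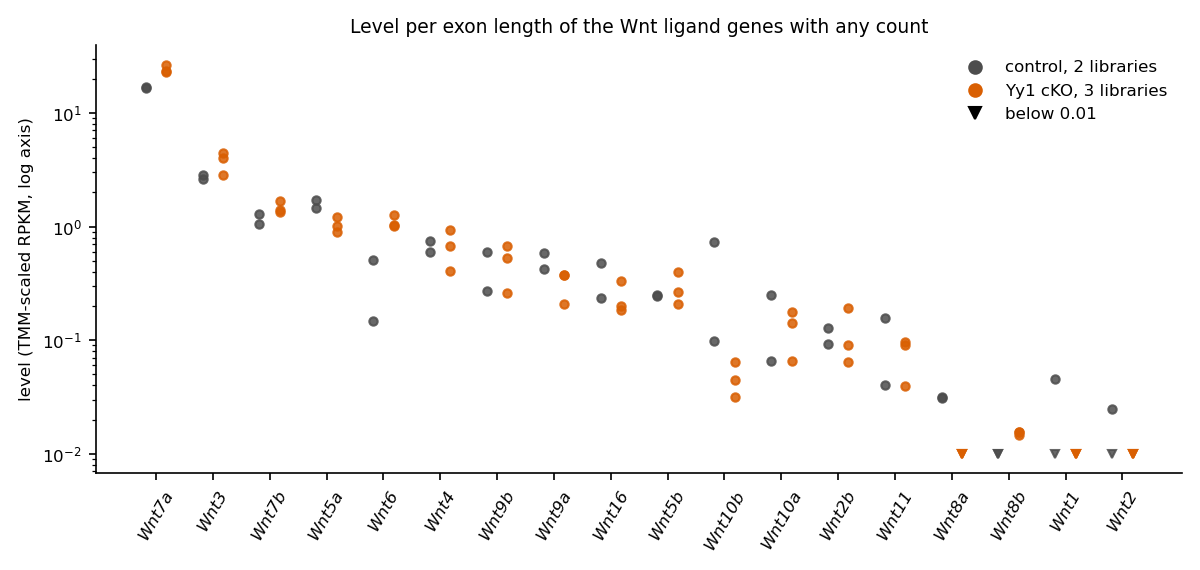
Level per exon length (TMM-scaled RPKM, log axis) of the 18 Wnt ligand genes with any count, ordered by mean level; each point is 1 library, grey for control and orange for Yy1 cKO, and triangles stand for libraries below 0.01. Wnt7a lies above every other ligand in all 5 libraries, and Wnt10b in control 1 (0.727) lies far above its other 4 libraries.

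Wnt10b was close to the limit of detection in every library but one. The gene (ENSMUSG00000022996.15, chromosome 15, 98770712 to 98778150, minus strand, GRCm38) had 46 counts in control 1 and 6 in control 2, against 3, 4 and 2 in Yy1 cKO 1, 2 and 3. Both controls lay above all 3 Yy1 cKO libraries, but control 2 lay much nearer to Yy1 cKO than to control 1. The exact Poisson 95% interval was 33.7 to 61.4 counts for control 1 and 2.2 to 13.1 for control 2, and it was 0.619 to 8.77, 1.09 to 10.2 and 0.242 to 7.22 for the Yy1 cKO libraries. The interval of control 2 thus overlapped those of all 3 Yy1 cKO libraries and not that of control 1. Such intervals cover counting error only. In CPM the controls stood at 2.47 and 0.335 and Yy1 cKO at 0.151, 0.219 and 0.107.

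In the fit with at least 11 counts in total, the log2 fold change of Wnt10b was -3.10 ± 0.87 (SE, 95% interval -5.13 to -1.07, edgeR adjusted p = 0.0457). Without control 1 it was -1.05 (adjusted p = 0.52), and without Yy1 cKO 1, 2 or 3 it was -3.06, -3.37 and -2.89 (adjusted p = 0.174, 0.127 and 0.186), so that only leaving out control 2 kept the call. Groups that do not overlap with the lower values in Yy1 cKO were found for 25.2% of the 24859 genes. Of the 2 libraries with Y-linked transcripts, control 1 had 46 counts and Yy1 cKO 3 had 2. Among the others, control 2 had 6 and Yy1 cKO 1 and 2 had 3 and 4.

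The nearest well-counted gene did not share the high value of control 1. Arf3, 7497 bases away on the same strand, had 3968 counts in control 1 and 3766 to 4202 in the other libraries. Wnt1, the ligand of the midbrain and hindbrain boundary, lies 11706 bases away on the opposite strand and had 2 counts in control 1 and 0 elsewhere, too few to compare. Over the whole count table, genes with at least 20 counts in control 1 and a CPM at least 4 times that of each other library were counted, a search chosen after the values were seen. It found 2 genes, Wnt10b and Prph. Prph, the neuronal intermediate filament peripherin, had 25 counts in control 1, 5 in control 2 and 6, 4 and 1 in Yy1 cKO, and lies 277 kb from Wnt10b on the same chromosome. Within 500 kb of Wnt10b, the other 33 genes that reached 11 counts in total had a control 1 level of 0.546 to 3.41 times the mean of the other libraries, with a median of 1.01, and 31 of them were under 2.

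**Figure D3:**
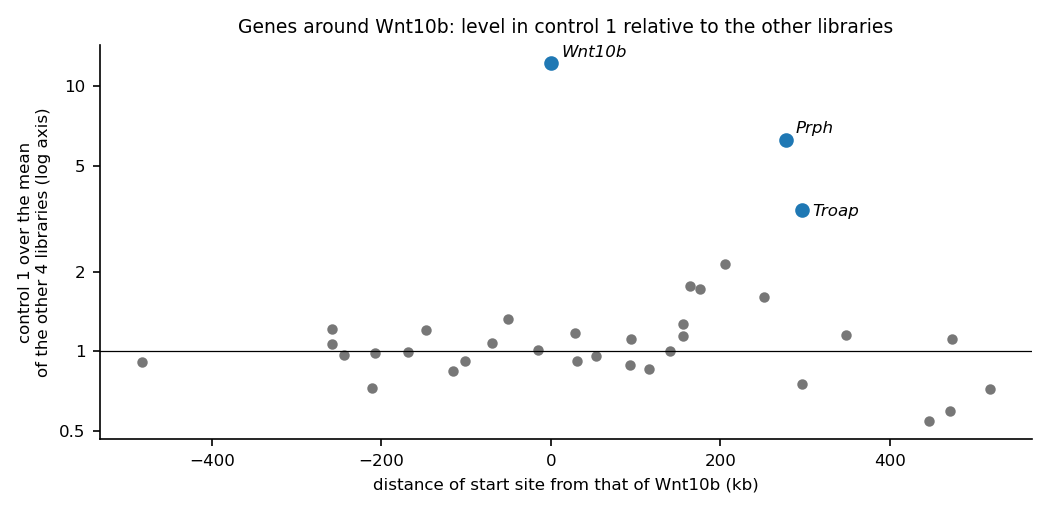
Level in control 1 divided by the mean of the other 4 libraries (vertical, log axis) for the 35 genes that reached 11 counts in total within 500 kb of Wnt10b, against the distance of their start site from that of Wnt10b (kb). Wnt10b (12.2) and Prph (6.3) stand above the rest, and Troap (3.41), which was high in both controls, comes next.

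The 250 bases before the RefSeq start site of Wnt10b, Wnt7a and Wnt6 are shown because YY1 is the deleted factor, Wnt7a and Wnt6 were called higher and Wnt10b is in the title of the series. The promoter of Wnt5a, the ligand called lower, was not analysed here. Sequences are 5′ to 3′ on the strand of the gene, from RefSeq on GRCm38.p6 (Wnt10b, chr15:98778151-98778400, minus; Wnt7a, chr6:91411354-91411603, minus; Wnt6, chr1:74771642-74771891, plus). Capitals mark the letters ATGGC in Wnt6 and, in Wnt7a, the 91 bases that lie inside the gene model Gm30437 on the other strand.
Wnt10b: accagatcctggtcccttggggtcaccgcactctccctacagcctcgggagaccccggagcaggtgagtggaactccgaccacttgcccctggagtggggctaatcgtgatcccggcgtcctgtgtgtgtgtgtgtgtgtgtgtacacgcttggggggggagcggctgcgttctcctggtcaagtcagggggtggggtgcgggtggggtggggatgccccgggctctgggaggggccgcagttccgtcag
Wnt7a: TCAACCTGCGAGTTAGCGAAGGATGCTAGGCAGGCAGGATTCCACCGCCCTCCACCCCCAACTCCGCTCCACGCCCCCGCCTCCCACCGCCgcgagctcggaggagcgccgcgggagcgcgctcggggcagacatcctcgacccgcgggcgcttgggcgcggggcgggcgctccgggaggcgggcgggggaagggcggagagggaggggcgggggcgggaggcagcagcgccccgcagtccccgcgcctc
Wnt6: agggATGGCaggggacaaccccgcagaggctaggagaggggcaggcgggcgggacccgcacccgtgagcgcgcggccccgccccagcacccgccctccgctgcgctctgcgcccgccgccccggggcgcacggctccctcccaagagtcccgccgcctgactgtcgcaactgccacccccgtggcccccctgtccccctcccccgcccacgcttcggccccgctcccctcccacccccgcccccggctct

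The windows searched ran from 250 bases before to 50 after the start site, on both strands. AANATGG, part of the YY1 consensus, was in 16.1% of all 32851 such windows and in 0 of the 18 windows of the 15 ligands found in the promoter table used, among them 9 windows of 7 of the 10 ligands. Wnt10a, Wnt5a and Wnt7b had no entry in it. The shorter core ATGGC, which can overlap the first motif and run past its end, was in 40.5% of all windows and in 1 of those 9, that of Wnt6, where it begins 246 bases before the start. The windows of the 7 ligands were rich in G and C, with a median of 76% and 31 CpG, against 52.7% and 7 over all windows. These are descriptions of letters and say nothing of binding.

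Wnt7a, the granule cell ligand, rose in Yy1 cKO. The gene (ENSMUSG00000030093.7, chromosome 6, 91363981 to 91411363, minus strand) gave 978 and 955 counts for the controls against 1473, 1530 and 1355 for Yy1 cKO, or 52.5 and 53.3 against 74.1, 83.8 and 72.8 CPM. The controls were nearly equal and every Yy1 cKO library lay well above both. The log2 fold change was 0.54 ± 0.075 (SE, 95% interval 0.37 to 0.71, edgeR adjusted p = 0.000788), or 1.45-fold, and it was called under all 15 alternatives run (0.46 to 0.58). Gm30437, a gene model that starts 149 bases before Wnt7a and runs the other way, gave 16 and 18 counts for the controls against 40, 31 and 29 for Yy1 cKO. Its log2 fold change of 0.91 ± 0.29 missed the threshold (edgeR adjusted p = 0.051). On the other side the nearest gene, Fbln2, 91440 bases away, went the other way (-0.95 ± 0.19, adjusted p = 0.0058).

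Marker lists of more than 1 kind of neuron rose alongside Wnt7a. Of all genes tested 10.7% were called higher and 12.6% lower, and these shares stand beside each marker list below. Of the 10 granule neuron markers 8 were called higher and 0 lower, with a median log2 fold change of 0.47, and their summed level was 4817 to 4839 CPM in the controls and 6096 to 6628 CPM in Yy1 cKO. Of 10 inhibitory interneuron markers (Golgi and molecular layer cells) 6 were called higher and 0 lower, with a median of 0.48, and their summed level was 494.6 to 504.3 CPM in the controls against 703.6 to 764 CPM in Yy1 cKO. Markers of granule cell precursors went the other way, with 9 of 10 called lower and a summed level of 218.4 to 255.1 CPM in the controls against 44.46 to 53 CPM in Yy1 cKO. The part of any of these lists in the change of Wnt7a was not tested.

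Wnt7b, the close relative of Wnt7a that acts with it on blood vessel growth in the brain, was not called (ENSMUSG00000022382.15, chromosome 15, 85535437 to 85582473, minus strand). The controls gave 118 and 92 counts and the Yy1 cKO libraries 137, 120 and 154 (5.74 ± 0.855 against 7.24 ± 0.902 CPM, SD, n = 2 and 3). Its groups did not overlap either, but its spread was wide beside the difference (log2 fold change 0.34, 95% interval -0.04 to 0.71, edgeR adjusted p = 0.191). The interval of Wnt7b contains the fold change of Wnt7a, and the difference between them was not tested.

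Wnt3, which activates beta-catenin signalling and is known from Purkinje cells, was high in 2 of the 3 Yy1 cKO libraries. The gene (ENSMUSG00000000125.5, chromosome 11, 103774150 to 103817957) gave 164 and 144 counts for the controls against 244, 249 and 164 for Yy1 cKO. In CPM these were 8.81 and 8.03 against 12.3, 13.6 and 8.81, so that Yy1 cKO 3 equalled control 1. The log2 fold change was 0.46 (95% interval 0.04 to 0.87, edgeR adjusted p = 0.107), and without Yy1 cKO 3 it was 0.62 (adjusted p = 0.00216). The list of Purkinje cell markers had 3 of 10 genes called higher and 0 lower. Its summed level was 4266 and 4511 CPM in the controls and 5883, 5973 and 5176 CPM in Yy1 cKO 1, 2 and 3, and its part in the values of Wnt3 was not tested. The convergent neighbour Nsf, 3824 bases away on the opposite strand, rose by 0.41 ± 0.062 (adjusted p = 0.00132).

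Wnt6 had the largest rise of the 8 tested ligands and rests on few counts. The gene (ENSMUSG00000033227.7, chromosome 1, 74771892 to 74785322), another ligand of the beta-catenin branch, gave 6 and 20 counts for the controls against 55, 41 and 42 for Yy1 cKO, or 0.322 and 1.12 against 2.77, 2.24 and 2.26 CPM. The Yy1 cKO libraries were close to each other and above both controls, while the controls lay far apart. The log2 fold change was 1.76 ± 0.42 (SE, 95% interval 0.82 to 2.69, edgeR adjusted p = 0.0146). Without control 1 it was 1.12 (adjusted p = 0.0851), without control 2 2.89 (adjusted p = 0.00749) and without Yy1 cKO 1 1.65 (adjusted p = 0.0512). Wnt10a, 6193 bases beyond Wnt6 on the same strand, was not called.

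Of the 10 meninges and fibroblast markers, Ptgds and Aldh1a2 were, like Wnt6, lowest in control 1, next in control 2 and higher in each Yy1 cKO library; both were picked after their values were seen. Ptgds, an enzyme of the inner meninges and the choroid plexus, stood at 44.9 and 183 CPM in the controls against 285, 373 and 387 CPM in Yy1 cKO 1, 2 and 3 (adjusted p = 0.255). Aldh1a2, which makes retinoic acid, stood at 2.47 and 5.24 against 5.33, 7.01 and 5.8 CPM (adjusted p = 0.158). Among the Yy1 cKO libraries the order differed, since Wnt6 was highest in Yy1 cKO 1 and both of these were lowest there. Others of the same list went the other way: Col3a1, a fibrillar collagen, fell by 1.35 ± 0.23 (adjusted p = 0.0147). Of the whole list 0 were called higher and 3 lower, with a median log2 fold change of -0.36. The summed level was 297.2 and 517.4 CPM in the controls and 429.9 to 588.8 CPM in Yy1 cKO. Ptgds alone made up most of that sum in Yy1 cKO, so the sum does not show the level of the other markers. The part of the meninges in the values of Wnt6 was not tested.

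Wnt5a, which signals mainly through Ror receptors, was the ligand called lower. The gene (ENSMUSG00000021994.15, chromosome 14, 28504750 to 28527448) gave 247 and 203 counts for the controls against 139, 144 and 177 for Yy1 cKO, or 13.3 and 11.3 against 7, 7.88 and 9.5 CPM. The groups did not overlap, with Yy1 cKO 3 nearest to the controls. The log2 fold change was -0.60 ± 0.15 (SE, 95% interval -0.94 to -0.26, edgeR adjusted p = 0.0186). The call was lost on leaving out either control (-0.48 without control 1, adjusted p = 0.177, and -0.71 without control 2, adjusted p = 0.0577). It was also lost without Yy1 cKO 1 (-0.50, adjusted p = 0.0661) and without Yy1 cKO 2 (-0.58, adjusted p = 0.0637), and kept without Yy1 cKO 3 (-0.73, adjusted p = 0.000909). The nearest gene at lower coordinates, Erc2, 26212 bases away on the same strand, was called lower too (-0.40 ± 0.084, adjusted p = 0.00808). Of 10 markers of endothelium and mural cells 6 were called lower and 1 higher, and their summed level was 323.8 and 354.6 CPM in the controls against 220.6 to 252.2 CPM in Yy1 cKO. The part of these cells, or of the granule cell precursors given above, in the values of Wnt5a was not tested.

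Wnt5b, the nearest relative of Wnt5a (ENSMUSG00000030170.14, chromosome 6, 119432531 to 119544347, minus strand), gave 12 and 12 counts for the controls against 21, 10 and 13 for Yy1 cKO. Its groups overlapped, and its log2 fold change of 0.23 had a wide interval (-0.71 to 1.17, edgeR adjusted p = 0.747). Fbxl14 lies inside Wnt5b on the opposite strand and had 358 to 488 counts. The libraries were strand-specific, but the strand setting of the counting is not given in the sources used here, so a share of such reads in a low count could not be separated. Wnt7b, Wnt5a and Wnt6 each overlap an antisense gene model too, but those had at most 7, 3 and 0 counts in a library.

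**Figure D4:**
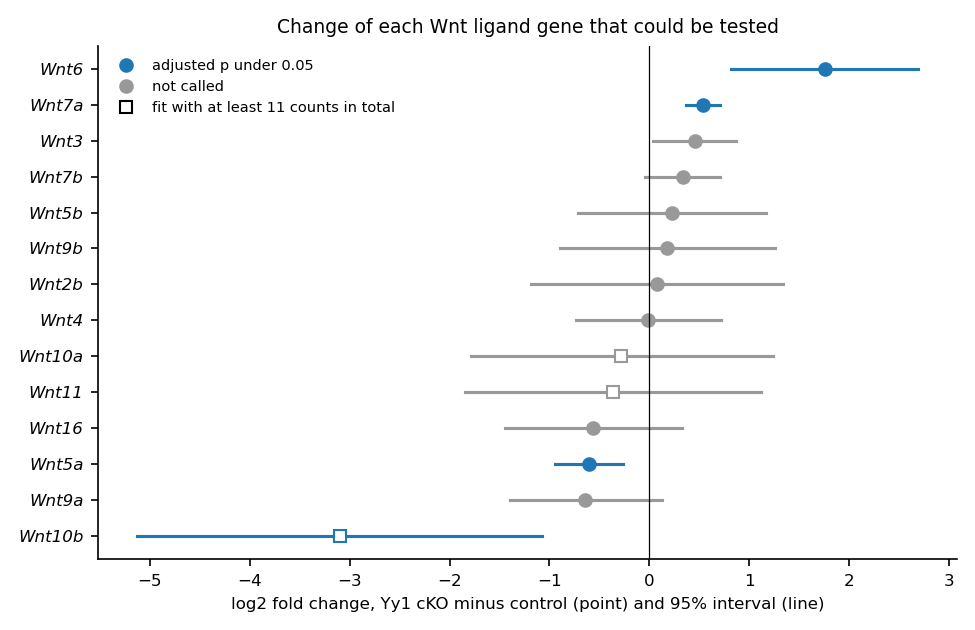
Log2 fold change (Yy1 cKO minus control, horizontal) with its 95% interval for the 14 Wnt ligand genes that could be tested; blue marks an adjusted p under 0.05, and open squares come from the fit with at least 11 counts in total. Wnt7a has the narrowest interval (0.37 to 0.71) and Wnt10b the widest (-5.13 to -1.07).

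Wnt4, Wnt9a and Wnt10a were not called. Wnt4, known from kidney and ovary development (ENSMUSG00000036856.4, chromosome 4, 137277489 to 137299726), gave 47 and 56 counts for the controls against 56, 71 and 32 for Yy1 cKO, so that the Yy1 cKO libraries spanned both controls. Its log2 fold change was -0.01 (95% interval -0.73 to 0.72, edgeR adjusted p = 0.988), so a change as large as that of Wnt7a lies within the interval. Wnt9a, known from joint formation (ENSMUSG00000000126.11, chromosome 11, 59306928 to 59333552), gave 26 and 35 counts for the controls against 25, 23 and 13 for Yy1 cKO. Each Yy1 cKO library was below both controls in CPM, but the difference stayed within the error (-0.64, 95% interval -1.40 to 0.13, edgeR adjusted p = 0.22). Wnt10a, known from teeth and hair and the closest relative of Wnt10b (ENSMUSG00000026167.14, chromosome 1, 74791516 to 74804179), gave 3 and 11 counts for the controls against 7, 8 and 3 for Yy1 cKO. Its groups overlapped (log2 fold change -0.28, 95% interval -1.79 to 1.24, edgeR adjusted p = 0.839), and it showed no excess in control 1, where Wnt10b was high.

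**Figure D5:**
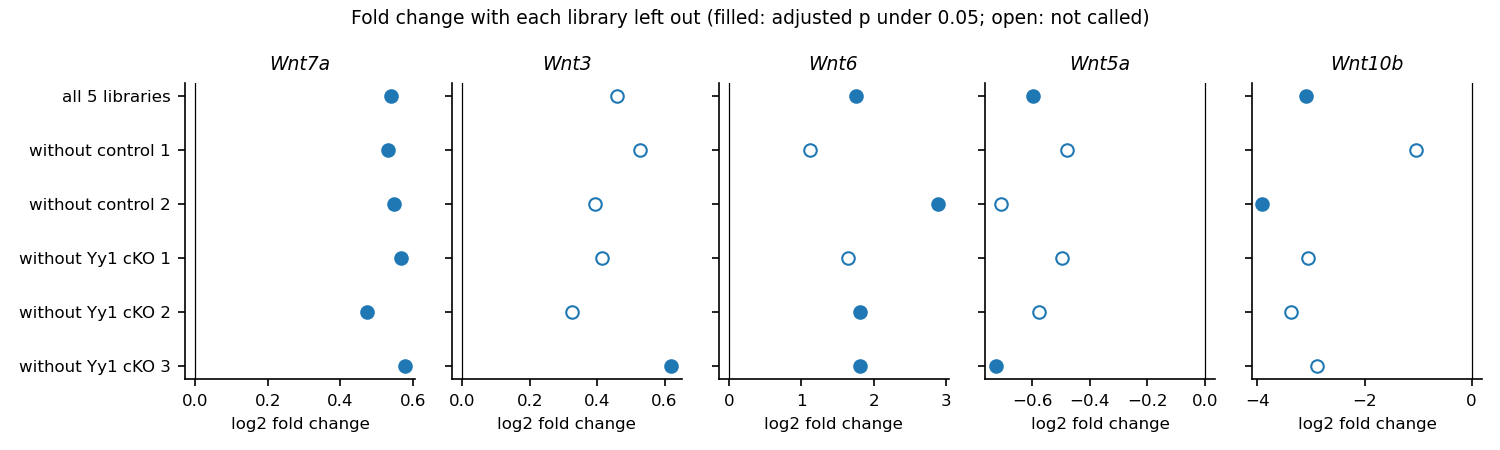
Log2 fold change (horizontal axes, each with its own range) of Wnt7a, Wnt3, Wnt6, Wnt5a and Wnt10b with all 5 libraries and with each library left out; filled points have an adjusted p under 0.05 and open points do not. Wnt7a is filled throughout, Wnt3 only without Yy1 cKO 3, and Wnt10b moves from -3.10 to -1.05 without control 1.

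The other 9 ligands were low, as were several of the 10, and those tested were not called. By mean RPKM Wnt9b (0.468) lay above Wnt9a, Wnt5b, Wnt10b and Wnt10a, and Wnt16 (0.285) lay above Wnt5b, Wnt10b and Wnt10a. Wnt9b (22 to 61 counts a library), Wnt16 (16 to 37) and Wnt2b (5 to 16) passed the filter, with log2 fold changes of 0.18, -0.56 and 0.08 (edgeR adjusted p = 0.824, 0.36 and 0.941). Wnt11 had 3 to 12 counts. Wnt1, Wnt2, Wnt8a and Wnt8b had at most 2 counts in any library. Wnt3a, a strong activator of beta-catenin signalling, had 0 counts in all 5. At these depths a count of 0, taken to allow up to 3 counts, allows a level of up to 0.151 to 0.167 CPM (0.186 to 0.206 CPM by the upper end of the exact Poisson 95% interval used for Wnt10b), so nothing can be said of the ligand in a small group of cells.

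The summed RPKM of all 19 ligands was 25.8 and 25.3 for the controls against 33.7, 36.8 and 31.5 for Yy1 cKO. Without Wnt7a it was 9.25 and 8.48 against 10.4, 10.4 and 8.54, and the groups then overlapped. The sum thus followed its largest member, and this is a description with no test.

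Genes that act on the ligands were measured beside them. Of 15 tested genes of Wnt acylation, export and removal 2 rose and 2 fell (median 0.04). Of all genes tested 10.7% were called higher and 12.6% lower, so this list stayed near these shares. Sulf1, a sulfatase that edits heparan sulfate, rose from 6.89 ± 2 to 14.3 ± 3.4 CPM (SD, n = 2 and 3), and the glypican Gpc6 from 21.8 ± 0.201 to 31.3 ± 5.02 CPM. Cpz, a carboxypeptidase with a Frizzled-like domain, fell from 3.26 ± 0.357 to 0.463 ± 0.224 CPM, and Vps35, of the retromer that recycles Wls, from 143 ± 3.11 to 127 ± 3.66 CPM. Porcn (82.6 ± 0.612 and 88 ± 5.01 CPM, adjusted p = 0.364) and Wls (25.7 ± 1.91 and 30.3 ± 1.69 CPM, adjusted p = 0.097) were not called; these 2 were named after their values were seen.

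Of 20 receptors 4 rose and 6 fell (median -0.19). The shares of all genes tested, 10.7% higher and 12.6% lower, stand beside this list and those that follow. The receptors that fell with the smallest p were Fzd2 (-1.80 ± 0.19), Fzd3 (-0.49 ± 0.054) and Lgr5, and those that rose were led by Fzd1, Fzd4 and Lgr4 (0.36, 0.44 and 0.30). Another list held 12 tested genes: secreted Wnt inhibitors, R-spondins, a membrane receptor of the Dkk inhibitors and a Frizzled ligand outside the Wnt family. Of these 5 fell and 0 rose (median -0.56), with the Dkk receptor gene among those that fell. Sfrp1 (-1.95 ± 0.13), Frzb (-1.39 ± 0.21) and Dkk2 were also among the 5. Dkk2 had 10 and 12 counts for the controls against 1, 1 and 2 for Yy1 cKO. Of 15 tested beta-catenin target genes 7 fell and 0 rose (median -0.39). Lgr5 is among both these 7 and the 6 receptors that fell. Notum, which was not called, is in this list and in that of acylation, export and removal. Nkd1, a feedback inhibitor, fell by 2.09 ± 0.079, Apcdd1 by 0.67 ± 0.075 and Sp5 by 0.92 ± 0.15. Sfrp1 is also among the granule cell precursor markers, which fell as given above, and their part in these counts was not tested.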

How the data were processed

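Total RNA of whole cerebella (TRIzol) was freed of ribosomal RNA, and strand-specific libraries were read in pairs of 150 bp, per the labels' protocols and the series design. The submitters' processing notes name GRCm38, STAR 2.7.1a, featureCounts, Trimmomatic 0.39, DESeq2 1.26.0 and FastQC 0.11.8. For their roles, the annotation release and the strand setting: not given in the sources used here. The authors deposited raw counts of 55421 genes and a normalized signal. The deposited signal equals the counts divided by 1 size factor per library (0.969 to 1.07) for 24859 genes, those whose counts sum to 11 or more; it was used for this check only.

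Symbols and exon lengths came from GENCODE M21 (54673 identifiers matched with version, 567 without, 181 not). The test was edgeR 4.0.16 (quasi-likelihood, TMM, robust dispersion, filterByExpr, no covariate, R 4.3.3) with Benjamini-Hochberg adjustment. It was checked on simulated counts of genes that pass filterByExpr, with far fewer genes changed than were called here. That check does not cover the second fit. SE come from the F statistic. The second fit used at least 11 counts in total. No library was a copy of another (chi-square per gene 3.51 to 41.5). Alternatives were other scalings, filters, DESeq2 1.42.0, limma-voom (limma 3.58.1), no robust dispersion, a replicate block, Xist as covariate and each library left out; with 1 control left, it is assumed to vary like the Yy1 cKO libraries. The genes, lists and tests were chosen with earlier results of these data known. Named genes were all ligands, their nearest and overlapping neighbours, label checks, and up to 3 called members per direction and pathway list by p. The 5 genes most like Wnt10b were named too, with predicted genes without an established symbol left out. Calb1, Gabra6, Ptgds, Aldh1a2, Col3a1, Prph, Troap, Porcn and Wls fall outside this rule and were chosen after their values were seen.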

Additional observations from a re-analysis of the deposited data

How the results depend on the processing

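With each library left out in turn, 870 to 2968 genes were called higher and 1266 to 3099 lower, against 2185 and 2577 with all 5, and 1 to 3 and 0 to 1 of the 8 ligands. The log2 fold change of Wnt10b ranged from -3.91 to -1.05 there, and limma-voom gave -2.43 (adjusted p = 0.151). Over its 14 alternatives its adjusted p ran from 1.53e-07 (no filter) to 0.52, and 5 of them ended the call. With no filter the log2 fold change of Wnt10b was nearly unchanged (-3.09). The adjusted p of Wnt7a, Wnt6 and Wnt5a also fell there at nearly unchanged fold changes (Wnt7a, edgeR, from 0.000788 to 1.26e-11). Those of the rest of the 10, apart from Wnt3, rose slightly. The smaller p with no filter thus came without a larger change. Scaling by library size alone moved the median gene by -0.079 and called 1432 genes higher and 3369 lower (29.8% higher against 45.9%). The 3 ligand calls stood. With the replicate number as a block 3486 genes were called higher, and Wnt3 was called (0.62, edgeR adjusted p = 7.58e-05). Number 3 exists only in Yy1 cKO, so the block takes up Yy1 cKO 3 and the comparison rests on the other libraries. It is thus close to leaving out Yy1 cKO 3, which gave 0.62 for Wnt3 as well. With no filter Wnt3 was called too (0.47, edgeR adjusted p = 0.0115). The block ended no ligand call. The labels do not say that numbers mark shared litters, and same-numbered libraries deviated together only weakly (r = 0.039 and 0.032). No ligand that was called changed sign under any alternative. Per longest transcript Wnt7b stood at 1.95 RPKM in place of 1.36. Counts under about 20 in most libraries limit Wnt10b, Wnt10a and Wnt5b. Low counts in the controls (6 and 20) limit Wnt6 too, and Wnt9a had 13 in Yy1 cKO 3.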

Other observations

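The pattern of Wnt10b over the 5 libraries was compared with that of 18940 genes by Pearson correlation of log2(CPM + 0.5). Of those with an established symbol, the most alike were Itga2 (0.9996), Mrpl44 (0.9975), Siah3 (0.9939), Noct (0.9908) and Ebpl (0.9905). Predicted genes without such a symbol were left out of this list. Itga2, an integrin subunit, had 56 counts in control 1 and 23 to 27 elsewhere, and Noct, a rhythmic phosphatase, had 1828 against 979 to 1081. The correlation ignores size: Mrpl44, of the mitochondrial ribosome, had 261 counts in control 1 and 233 to 253 elsewhere. With 5 points, 120 genes had a correlation above 0.95. Genes with at least 20 counts in 1 library and at least 4 times the CPM of each other library numbered 2 for control 1, 11 for control 2, 0 for Yy1 cKO 1, 1 for Yy1 cKO 2 and 6 for Yy1 cKO 3. Those with an established symbol numbered 2, 1, 0, 1 and 1. Most of the 11 were predicted genes on chromosome 2 with 169 to 176 counts each in control 2, so the 11 may overstate the number of separate differences.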
